A study of Homo sapiens with 21 samples.

Results

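The antisense long noncoding RNAs described here are the genes whose name in the deposited HNRNPK clusters ends in -AS and a number, such as *HIF1A-AS2* or *OIP5-AS1*. They were chosen by name alone. This gave 326 of the 18322 named genes with a cluster, and 4893 of the 778762 clusters. A cluster is a short stretch of overlapping PAR-CLIP reads with T-to-C changes, the trace that a crosslinked 4-thiouridine leaves in the sequence. HNRNPK was immunoprecipitated from the cytoplasmic and the nuclear fraction of parental MDA-MB-231 cells, a cell line established from a triple-negative breast cancer, and of its CRISPR/Cas9 *KRT19* KO derivative, all labelled with 4-thiouridine. Each of the 4 conditions, the cytoplasm and the nucleus of either line, had 1 library, so no difference below has a replicate check and no test was run. Intervals are 95% intervals (Wilson for shares, exact for ratios of read counts) and cover counting error only. The authors removed potential PCR duplicates, and any copies of a molecule that were left would not be independent reads. The label could not be checked by the targeted gene, because *KRT19* held 1 cluster of 7 reads in the parental and 1 of 5 reads in the *KRT19* KO cytoplasmic library, and no cluster was listed in either nucleus.

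An antisense RNA is transcribed from the strand opposite to another gene, and takes its name from that gene. Some antisense RNAs overlap their sense partner, some start near its promoter and run the other way, and they are known both as nuclear transcripts that act near their gene and as cytoplasmic transcripts. HNRNPK is an RNA-binding protein whose KH domains prefer runs of cytosine, and it moves between nucleus and cytoplasm.

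The sequences below are the deepest clusters of antisense RNAs with many reads. They show what HNRNPK contacted in each RNA. Bases are on the strand of the RNA, 5′ to 3′, as DNA letters in hg19 (GRCh37), and runs of 3 or more C are in capitals.
HIF1A-AS2, chr14:62200635-62200678, minus strand: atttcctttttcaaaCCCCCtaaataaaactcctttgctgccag
C17orf76-AS1, chr17:16359244-16359274, plus strand: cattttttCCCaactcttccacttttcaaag
FLG-AS1, chr1:152167606-152167639, plus strand: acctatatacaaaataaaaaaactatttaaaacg
SETD5-AS1, chr3:9426068-9426103, minus strand: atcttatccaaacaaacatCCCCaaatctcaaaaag
NR2F1-AS1, chr5:92875313-92875340, minus strand: ctcttCCCatcctccattCCCtccttcc
GMDS-AS1, chr6:2316383-2316413, plus strand: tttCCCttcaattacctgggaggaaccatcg
RAB30-AS1, chr11:82793701-82793729, plus strand: ttttccacctaatccaattcctaatttta
TMEM161B-AS1, chr5:87573296-87573332, plus strand: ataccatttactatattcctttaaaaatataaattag
NUTM2A-AS1, chr10:88971441-88971475, minus strand: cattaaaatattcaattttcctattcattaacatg

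The deepest clusters of *RPA3-AS1* and *HNRNPU-AS1* are not printed because they lie in untranslated regions. The *HIF1A-AS2* cluster held 864 reads in parental cytoplasm, of which 239 were unique and 339 carried a T-to-C change. The same place was a cluster in all 4 libraries, with 497 reads in *KRT19* KO cytoplasm, 818 in the parental nucleus and 795 in the *KRT19* KO nucleus. By contrast the *SETD5-AS1* cluster held 360 and 433 reads in parental and *KRT19* KO cytoplasm, the *NUTM2A-AS1* cluster 222 and 494, and neither was listed in a nucleus. The *RAB30-AS1* cluster was listed only in the nuclei, with 192 reads in the parental library and 73 after *KRT19* KO.

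The next set shows members whose reads were at least 2-fold higher in cytoplasm in both cell lines, then 3 that were lower in both, and *GABPB1-AS1* for a site found in all 4 libraries. These were chosen after their values were seen.
FGD5-AS1, chr3:14985886-14985910, minus strand: tttctcatttctttcatttaatacc
MKLN1-AS2, chr7:131006916-131006949, minus strand: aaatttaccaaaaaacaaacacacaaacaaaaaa
NNT-AS1, chr5:43575333-43575365, minus strand: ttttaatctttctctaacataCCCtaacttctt
HIF1A-AS1, chr14:62159449-62159480, minus strand: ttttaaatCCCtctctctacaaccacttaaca
TPT1-AS1, chr13:45934540-45934567, plus strand: cattctaCCCttctctCCCtccataacc
PXN-AS1, chr12:120648978-120649002, plus strand: catacttCCCCttctcctCCCacag
SYNPR-AS1, chr3:63482681-63482726, minus strand: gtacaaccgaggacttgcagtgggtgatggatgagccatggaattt
GABPB1-AS1, chr15:50654516-50654549, plus strand: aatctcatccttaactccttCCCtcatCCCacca

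The deepest clusters of *FGD5-AS1* and *MKLN1-AS2* held no run of 3 C, and those of *TPT1-AS1*, *PXN-AS1* and *GABPB1-AS1* held a pair of such runs each. The *SYNPR-AS1* cluster rested on 19 reads, of which 2 were unique.

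The name was checked against GENCODE v44lift37, a current annotation placed on GRCh37. The sense partner, the gene named by the part before -AS, was found for 313 members, and lay on the opposite strand for 311 of them. For *HNRNPU-AS1* and *TRMT2B-AS1* it lay on the same strand, so these names went against the data. A cluster lay directly opposite the partner's gene body in 153 members, and 158 members with an opposite partner had no such cluster. In all, 1160 clusters (23.7%) lay opposite the partner. The symbol itself was still in use for 264 members, which held 43.6% of the members' reads. Another 52 members, with 51.7% of the reads, now lie in noncoding genes of another name, and 10 members, with 4.71%, in protein-coding genes. *HIF1A-AS2* is now part of *HIF1A-AS3*, *C17orf76-AS1* is *SNHG29*, a snoRNA host gene, *MKLN1-AS1* is *LINC-PINT*, a p53-induced noncoding RNA, and *SETD5-AS1* is *THUMPD3-AS1*. All 59 clusters of *HNRNPU-AS1* lay in *HNRNPU*, which encodes a nuclear RNA-binding protein, on its own strand and in its exons. Its values below therefore cannot be told apart from those of the *HNRNPU* mRNA, which the files also list under its own name. The names of the deposited clusters are kept here.

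Antisense RNAs made up a small and nearly constant share of clusters in each library. The share was 0.627% (0.593 to 0.662%) in parental cytoplasm, 0.617% (0.581 to 0.654%) in *KRT19* KO cytoplasm, 0.613% (0.580 to 0.648%) in the parental nucleus and 0.656% (0.621 to 0.692%) in the *KRT19* KO nucleus, and these intervals overlap. Clusters numbered 1264, 1095, 1228 and 1306 in that order, in 190, 170, 200 and 211 genes. The share of reads differed between fractions. It was 0.435% (0.429 to 0.440%) and 0.381% (0.376 to 0.386%) in parental and *KRT19* KO cytoplasm, and 0.648% (0.640 to 0.657%) and 0.781% (0.771 to 0.791%) in the nuclei. The nuclear shares were thus higher in both cell lines, beyond counting error. This was not particular to antisense RNAs. RNAs named LINC, another group of noncoding RNAs, had 0.259% and 0.165% of reads in cytoplasm and 0.349% and 0.338% in the nuclei. A higher RNA level and more HNRNPK bound per RNA cannot be told apart from these libraries, since RNA levels were not analysed here. The 10 deepest clusters of each library, none of them in an antisense RNA, took 12.9% and 8.11% of cluster reads in parental and *KRT19* KO cytoplasm and 1.55% and 3.95% in the nuclei. With these left out of the totals, the antisense shares of reads were 0.500% and 0.415% in cytoplasm and 0.658% and 0.813% in the nuclei, so the order of the fractions held.

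Antisense RNAs found in all 4 libraries held far more reads than those found in 1. This is partly built in, since reads were summed over the libraries with a cluster. Of the 326 genes, 101 had a cluster in all 4 libraries, 40 in 3, 62 in 2 and 123 in 1. The 101 genes held 93.1% of the members' reads with a median of 300 reads, whereas the 123 genes held 1.64% with a median of 10. Among all named genes, 51.9% had a cluster in all 4 libraries, against 31.0% of the antisense RNAs. The highest totals among genes seen in 1 library were 51 reads each for *KMT2E-AS1*, in the *KRT19* KO nucleus, and *ZNRD1-AS1*, in parental cytoplasm. Of the list of much-studied antisense RNAs, *HOXA-AS2*, *HOXA-AS3* and *CDKN2B-AS1* had no cluster listed in any library. A gene with no listed cluster may still have been bound, because clusters under 5 reads are not in the files.

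Reads were concentrated in few antisense RNAs. The 12 with the most reads held 56.3% of the members' 96155 reads and 36.3% of their clusters. *HIF1A-AS2* alone held 20.7% of the reads, 295 clusters and 19877 reads. It runs on the strand opposite to *HIF1A*, which encodes the oxygen-regulated subunit of hypoxia-inducible factor, and 264 of the 295 clusters lay opposite that gene. Per length it was also dense, with 34.9 distinct sites per 10 kb of the annotated gene against 25.6 in *C17orf76-AS1*, 17.3 in *AFAP1-AS1*, 11.4 in *OIP5-AS1* and 4.52 in *MKLN1-AS1*. A site here is a group of clusters of the 4 libraries that share at least 1 nt.

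**Figure D1:**
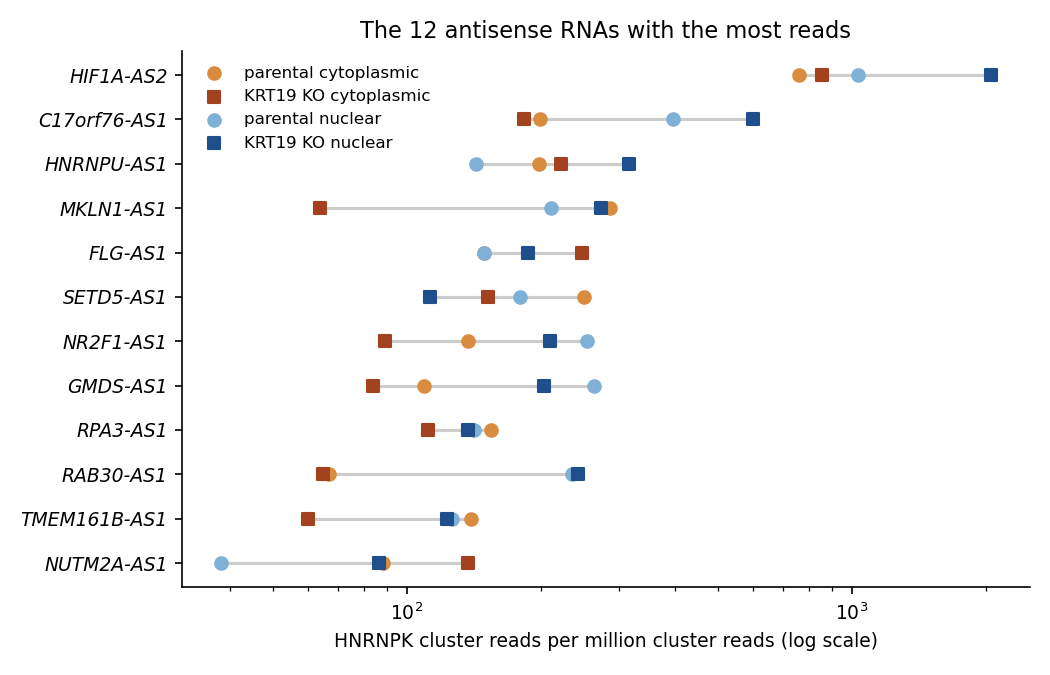
HNRNPK cluster reads scaled to the library (RPM, reads per 1000000 cluster reads, x axis, log scale) of the 12 antisense RNAs with the most reads (y axis), with 1 point per library and a grey line from the lowest to the highest. *HIF1A-AS2* lies above the other 11 in every library, from 759 to 2055 RPM, and the orange and brown cytoplasmic points of *RAB30-AS1* lie well below its blue nuclear points (the points of *FLG-AS1* in both parental fractions coincide).

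*HIF1A-AS2* held 4211 and 5324 reads in parental and *KRT19* KO cytoplasm and 3656 and 6686 in the nuclei. Scaled to the library this was 759 and 856 reads per 1000000 cluster reads (RPM) in cytoplasm and 1033 and 2055 in the nuclei, lowest in parental cytoplasm and highest in the *KRT19* KO nucleus. It was 1.36-fold (1.30 to 1.42) higher in nucleus than cytoplasm in parental cells and 2.40-fold (2.31 to 2.49) in *KRT19* KO cells. As log2 cytoplasm to nucleus folds these are -0.45 and -1.26, beside medians of -0.58 and -0.66 over all genes. In parental cells it thus leaned less to the nucleus than the median gene, and in *KRT19* KO cells more. Its sense partner *HIF1A* ran the other way. *HIF1A* held 4206 and 10282 reads in cytoplasm and 691 and 933 in the nuclei, and was 3.88-fold (3.58 to 4.21) higher in cytoplasm in parental and 5.77-fold (5.39 to 6.17) in *KRT19* KO cells. Between cell lines, *HIF1A-AS2* was 1.13-fold (1.08 to 1.18) higher in *KRT19* KO cytoplasm and 1.99-fold (1.91 to 2.07) higher in the *KRT19* KO nucleus, where *HIF1A* was 2.18-fold (2.11 to 2.26) and 1.47-fold (1.33 to 1.62) higher. The clusters of the pair rarely met. In parental cytoplasm 2 clusters of *HIF1A-AS2* faced an intronic *HIF1A* cluster on the other strand, and in the parental nucleus 2 did.

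Part of the binding pattern along *HIF1A-AS2* recurred between libraries. Of its 153 sites, 78 were found in 1 library and 22 in all 4, out of 67 such sites in 25 antisense RNAs. *C17orf76-AS1*, *HNRNPU-AS1* and *LIPE-AS1* had 5 each and *NR2F1-AS1* had 4. Only 14.8% and 14.5% of the *HIF1A-AS2* clusters in parental and *KRT19* KO cytoplasm and 7.94% and 9.09% in the nuclei touched an annotated exon. Runs of CCC occurred in 32.8% and 30.1% of its clusters in cytoplasm and in 31.7% and 31.8% in the nuclei.

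**Figure D2:**
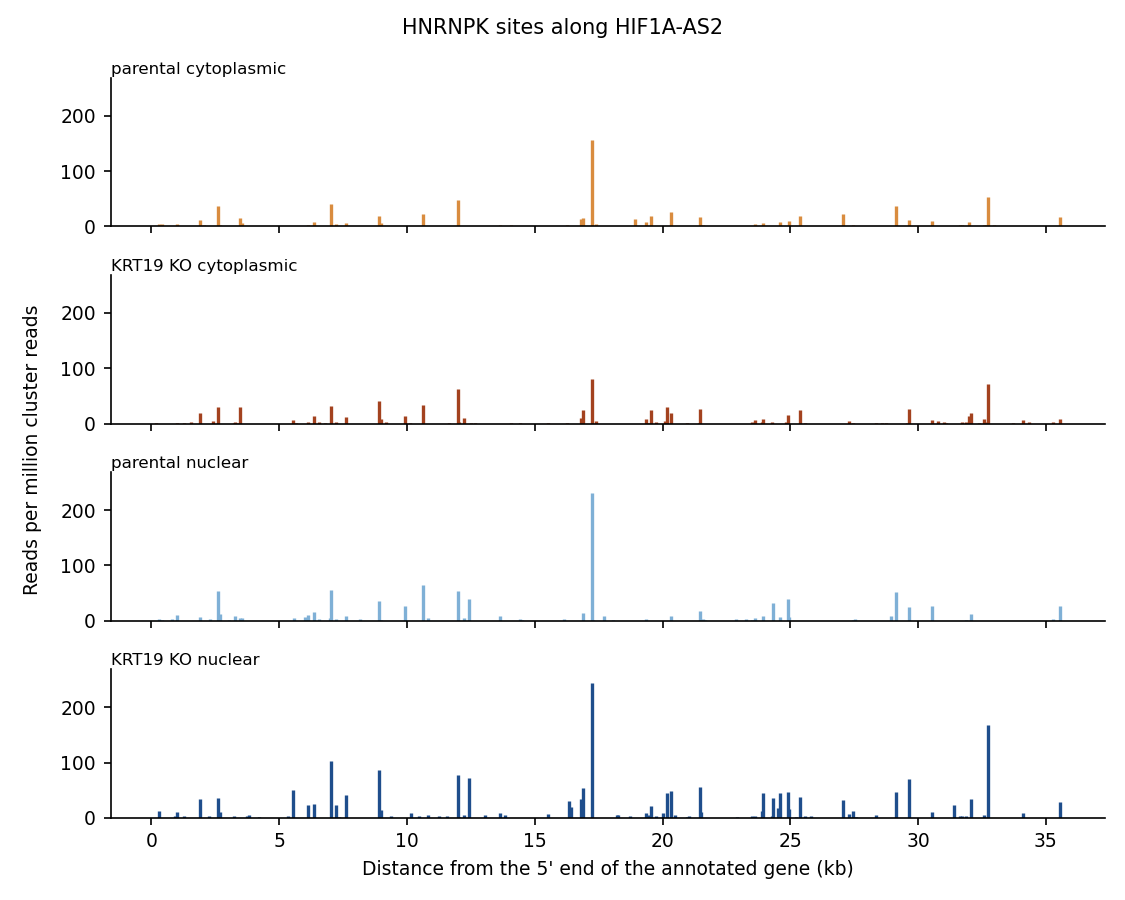
HNRNPK sites along *HIF1A-AS2* in the 4 libraries, with distance from the 5′ end of the annotated gene in kb (x axis) and RPM of each site (y axis, same scale in each panel, each line 1 site). The site of 864, 497, 818 and 795 reads stands in every panel, while the site at 32.7 kb, with 291 and 445 reads in parental and *KRT19* KO cytoplasm and 548 in the *KRT19* KO nucleus, had no cluster listed in the parental nucleus.

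The other antisense RNAs with many reads differed in where they were bound. *C17orf76-AS1* held 1105 and 1139 reads in parental and *KRT19* KO cytoplasm and 1398 and 1948 in the nuclei, which is 1.99-fold (1.83 to 2.15) and 3.27-fold (3.04 to 3.52) higher in nucleus by RPM. Exons held 47.1% and 40.8% of its reads in cytoplasm and 12.3% and 8.2% in the nuclei. *RAB30-AS1*, named after a Golgi small GTPase, held 371 and 402 reads in cytoplasm and 830 and 787 in the nuclei. It was 3.51-fold (3.10 to 3.98) and 3.74-fold (3.31 to 4.23) higher in nucleus, nearly the same in both cell lines. *GMDS-AS1*, which starts beside the gene for an enzyme of GDP-fucose synthesis, behaved alike, with 605 and 522 reads in cytoplasm, 930 and 660 in the nuclei, and nuclear excesses of 2.41-fold (2.18 to 2.68) and 2.42-fold (2.15 to 2.72). *NR2F1-AS1*, beside a nuclear receptor gene, was 1.85-fold (1.67 to 2.04) and 2.35-fold (2.10 to 2.63) higher in nucleus. These 4 therefore leaned to the nucleus in both cell lines.

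*FLG-AS1*, opposite the filaggrin gene, held 829 and 1537 reads in cytoplasm and 528 and 607 in the nuclei. Its RPM was equal in both parental fractions, with a cytoplasm to nucleus ratio of 1.00 (0.896 to 1.12), where the median log2 fold of all genes was -0.58. Its highest level was in *KRT19* KO cytoplasm. *SETD5-AS1* held 1386 and 946 reads in cytoplasm and 634 and 366 in the nuclei, and was 1.39-fold (1.27 to 1.53) and 1.35-fold (1.20 to 1.53) higher in cytoplasm. *NUTM2A-AS1* held 490 and 851 reads in cytoplasm and 135 and 281 in the nuclei, which is 2.31-fold (1.91 to 2.82) and 1.58-fold (1.38 to 1.82) higher in cytoplasm. For the last pair a single site carried much of the cytoplasmic excess. The *SETD5-AS1* site of 360 and 433 reads and the *NUTM2A-AS1* site of 222 and 494 reads, whose sequences are given above, had no cluster in either nucleus.

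*TMEM161B-AS1* held 774 and 372 reads in cytoplasm and 447 and 400 in the nuclei. *RPA3-AS1*, named after a replication protein A subunit, held 859 and 694 reads in cytoplasm and 500 and 446 in the nuclei. Its 36 nt site of 461 and 363 cytoplasmic reads lay in an exon of *UMAD1* on the same strand and was absent from both nuclear lists. Exons held 53.7% and 63.1% of its cytoplasmic reads and none of its nuclear reads. That site gave all of the exonic reads in parental and most of those in *KRT19* KO cytoplasm. Its reads cannot be told apart from those of *UMAD1* RNA. *HNRNPU-AS1* held 1098 and 1381 reads in cytoplasm and 505 and 1024 in the nuclei, all in exons. *COX10-AS1*, with 137 clusters, held 357 and 273 reads in cytoplasm and 430 and 516 in the nuclei, and its deepest site held 68 reads over all libraries.

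Most antisense clusters carried the authors' class antisense, which does not separate exons from introns. Over the 4 libraries 3457 clusters (70.7%) had this class, 967 (19.8%) were lincRNA_intron, 230 (4.70%) processed_transcript, 111 (2.27%) lincRNA_exon and 97 (1.98%) retained_intron. The members supplied 27.4% of all clusters in the class antisense. The classes changed little between libraries. Antisense was 72.4% and 69.2% in parental and *KRT19* KO cytoplasm and 71.1% and 69.8% in the nuclei, and lincRNA_exon was 2.61% and 3.47% in cytoplasm against 1.22% and 1.91% in the nuclei. Classes other than introns held 80.7% (78.4 to 82.8%) and 78.1% (75.5 to 80.4%) of member clusters in cytoplasm and 77.4% (74.9 to 79.6%) and 76.1% (73.7 to 78.3%) in the nuclei, but that share mostly counts the mixed class.

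With exons taken from GENCODE v44lift37 instead, 21.7% (19.5 to 24.0%) and 28.4% (25.8 to 31.1%) of antisense clusters touched an exon in parental and *KRT19* KO cytoplasm, and 15.1% (13.3 to 17.3%) and 17.2% (15.2 to 19.3%) in the nuclei. Of antisense reads 30.0% and 36.4% lay in exonic clusters in cytoplasm, and 16.9% and 18.0% in the nuclei. Some of these clusters lie in protein-coding genes on the same strand. Without such clusters the shares of reads were 24.7% and 28.0% in cytoplasm and 14.8% and 14.3% in the nuclei. The exon call was added after the classes were seen. Exonic binding was thus a larger part in cytoplasm than in nucleus in both cell lines, and so it was for all clusters, at 19.7% and 28.4% in cytoplasm and 11.4% and 11.3% in the nuclei. By clusters, the antisense share in exons was above that of all clusters in the nuclei, and in cytoplasm the values of all clusters lay inside the antisense intervals. By reads, it was below the 43.4% and 65.6% of all reads in cytoplasm. In the nuclei it was slightly above the 15.4% and 17.7% of all reads. RNAs named LINC, another group of noncoding RNAs, had 18.6% and 27.3% of clusters in exons in cytoplasm and 14.5% and 15.0% in the nuclei, within the intervals of the antisense RNAs save for the parental cytoplasmic and the *KRT19* KO nuclear value.

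**Figure D3:**
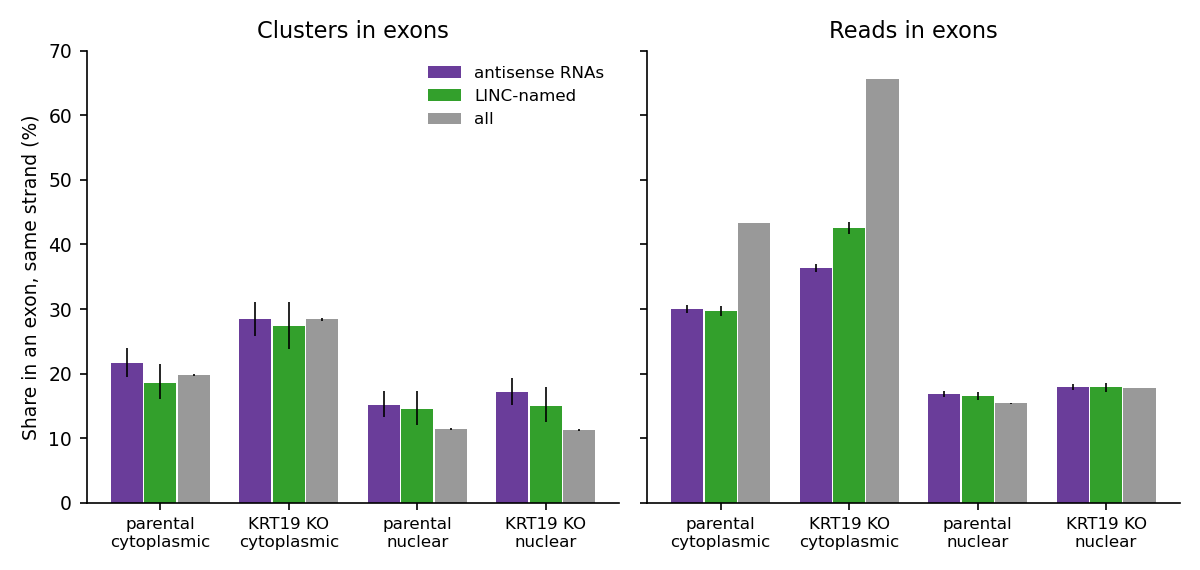
Share of clusters (left) and of reads (right) in an exon on the same strand, in percent (y axis), for antisense RNAs, RNAs named LINC and all clusters in the 4 libraries (x axis), with bars for the share and lines for the 95% Wilson interval. The antisense bars stand at 21.7 and 28.4% of clusters in cytoplasm and at 15.1 and 17.2% in the nuclei, and in cytoplasm the bars of all reads stand above those of both groups.

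The same was seen by site. Antisense RNAs had 3766 distinct sites, and 2962 of them (78.7%) were found in 1 library, as were 77.4% of all sites. Sites found in both cytoplasmic libraries and in neither nucleus numbered 124, and 56 of them (45.2%, 36.7 to 53.9%) touched an exon. Sites found in both nuclei and in neither cytoplasm numbered 89, and 12 (13.5%, 7.88 to 22.1%) touched an exon. Among all sites of the series the corresponding shares were 40.1% and 9.65%, so the antisense RNAs followed the rest. Of 141 antisense sites with at least 100 reads over the libraries, 15 had no cluster in a nucleus, 10 of them in exons, and 9 had none in cytoplasm, 2 of them in exons. Sites of this depth were not counted over all genes, so whether antisense RNAs differ from the rest here is not known. The deep sites seen only in the nuclei included those of *HIF1A-AS2* with 140 and 235 reads, *RAB30-AS1* with 192 and 73, and *C17orf76-AS1* with 148 and 27 in parental and *KRT19* KO cells, and a *SDCBP2-AS1* site of 326 reads in parental cells only. Exonic deep sites seen only in cytoplasm included 2 of *AFAP1-AS1*, with 31 and 94 and with 25 and 96 reads, and 1 of *PTPRG-AS1* with 62 and 66.

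Clusters of antisense RNAs looked like other HNRNPK clusters in sequence. Their median length was 28 nt in both cytoplasmic libraries, 29 nt in the parental nucleus and 25 nt in the *KRT19* KO nucleus, equal to that of all clusters in each library. They were poor in G, at 6.29% and 6.38% of bases in cytoplasm and 8.22% and 6.59% in the nuclei, with C at 26.6% and 26.6% in cytoplasm and 28.4% and 29.6% in the nuclei. A run of CCC occurred in 41.9% (39.2 to 44.7%) and 40.7% (37.9 to 43.7%) of clusters in cytoplasm and in 48.4% (45.6 to 51.2%) and 47.0% (44.3 to 49.7%) in the nuclei. Over all clusters these shares were 40.0% and 40.8% in cytoplasm and 45.4% and 45.1% in the nuclei, and 3 of the 4 fell inside the antisense intervals, the parental nuclear value lying just below. RNAs named LINC had 42.9%, 39.4%, 45.1% and 44.2% in the same order. T-to-C reads made up 66.9% and 65.3% of antisense reads in cytoplasm and 71.2% and 73.7% in the nuclei, against 66.4% and 59.6% and 72.9% and 76.7% over all reads.

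Between libraries, few antisense clusters were found again at the same place. Of the parental cytoplasmic clusters 23.1% overlapped a *KRT19* KO cytoplasmic cluster and 19.8% a parental nuclear one, and of the *KRT19* KO nuclear clusters 18.7% overlapped a parental nuclear and 18.9% a *KRT19* KO cytoplasmic one. Over all clusters these shares were 25.5%, 21.5%, 19.0% and 19.6%. A cluster of any other library was met by 40.7% and 44.9% of antisense clusters in cytoplasm and by 36.5% and 36.4% in the nuclei, beside 43.5%, 47.0%, 38.0% and 36.8% of all clusters in the same order. Few clusters lay opposite another cluster of their library. Among antisense clusters 6 and 5 did in parental and *KRT19* KO cytoplasm and 3 and 3 in the nuclei, which is 0.475%, 0.457%, 0.244% and 0.230%, against 0.106%, 0.153%, 0.114% and 0.0753% of all clusters. They included *SPTY2D1-AS1* with 5 reads opposite a 3′UTR cluster of *SPTY2D1* with 1123 reads.

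To compare fractions, each gene was given in RPM, and a fold was given only for genes with a cluster in both libraries and at least 50 reads in the pair. In parental cells 94 antisense RNAs had a cytoplasm to nucleus fold. Of these 10 were at least 2-fold higher in cytoplasm (10.6%, against 15.5% of 9056 genes) and 38 at least 2-fold lower (40.4%, against 35.4%). In *KRT19* KO cells 86 had a fold, with 9 at least 2-fold higher (10.5%, against 22.3% of 9020 genes) and 48 at least 2-fold lower (55.8%, against 41.7%). Antisense RNAs had a median log2 fold of -0.80 in parental cells and of -1.27 after *KRT19* KO, beside -0.58 and -0.66 over all genes and -0.75 and -1.28 over RNAs named LINC. The medians of all genes lie below 0, so folds relative to them were also counted, a setting added later. This gave 18 higher and 26 lower in parental and 15 higher and 35 lower in *KRT19* KO cells. All genes were not counted in this setting, so whether antisense RNAs differ from the rest by it is not known. Another 59 antisense RNAs had a cluster in parental cytoplasm only and 69 in the parental nucleus only, none with more than 78 reads. For *KRT19* KO cells these numbers were 39 and 80, with at most 151 reads. Of antisense RNAs with a cluster in either fraction, 50.6% had one in both in parental and 52.4% in *KRT19* KO cells, against 68.7% and 70% of all genes.

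Of 73 antisense RNAs with a fold in both cell lines, 4 were at least 2-fold higher in cytoplasm in both, 24 at least 2-fold lower in both, and none was past 2-fold in opposite directions. These are 5.48% and 32.9%, against 11.9% and 22.3% of 8016 genes, of which 2.41% were opposite. The 4 were *FGD5-AS1*, *MKLN1-AS2*, *NNT-AS1* and *HIF1A-AS1*. *FGD5-AS1*, from the locus of a Cdc42 exchange factor, held 413 and 440 reads in parental and *KRT19* KO cytoplasm and 21 and 57 in the nuclei. It was 12.5-fold (8.09 to 20.5) and 4.04-fold (3.06 to 5.42) higher in cytoplasm. Its deepest site held 287 and 222 reads in cytoplasm, none listed in the parental nucleus and 8 in the *KRT19* KO nucleus, and exons held 98.1% and 98.9% of its cytoplasmic reads.

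*MKLN1-AS2*, opposite the gene of the muskelin protein, held 99 and 167 reads in cytoplasm and 15 and 19 in the nuclei, and was 4.21-fold (2.43 to 7.80) and 4.60-fold (2.85 to 7.83) higher in cytoplasm. *NNT-AS1*, beside the gene of the mitochondrial nicotinamide nucleotide transhydrogenase, held 180 and 247 reads in cytoplasm and 51 and 16 in the nuclei, giving 2.25-fold (1.64 to 3.13) and 8.08-fold (4.88 to 14.4). Its deep exonic sites differed between cell lines, with 120 reads at 1 place in parental and 112 at another in *KRT19* KO cytoplasm. *HIF1A-AS1* held 39 and 98 reads in cytoplasm and 12 and 21 in the nuclei, with folds of 2.07 (1.06 to 4.34) and 2.44 (1.51 to 4.12), opposite in direction to *HIF1A-AS2* from the same locus. In the parental nucleus *FGD5-AS1*, *MKLN1-AS2* and *HIF1A-AS1* had only 1 cluster each. The 4 differed in exonic binding. Exons held 89.4% and 69.2% of the cytoplasmic reads of *NNT-AS1*, 38.4% and 49.7% of those of *MKLN1-AS2* and none of those of *HIF1A-AS1*. Pooled, the 4 had 82.6% and 72.4% in exons, most of them from *FGD5-AS1*, and the 24 lower in both had 11.6% and 10.1%.

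Among the 24, *TPT1-AS1*, which starts beside the gene of the translationally controlled tumour protein, held 104 and 5 reads in cytoplasm and 164 and 111 in the nuclei. It was 2.47-fold (1.92 to 3.20) and 42.4-fold (17.6 to 133) higher in nucleus, the latter resting on 1 cytoplasmic cluster of 5 reads. *PXN-AS1*, opposite the gene of the focal adhesion protein paxillin, held 13 and 5 reads in cytoplasm and 41 and 77 in the nuclei, with nuclear excesses of 4.95-fold (2.60 to 10.1) and 29.4-fold (12.1 to 93.2). Its cytoplasmic reads came from 1 cluster in each cell line. Exons held 85.4% and 88.3% of its reads in the parental and *KRT19* KO nuclei. *SYNPR-AS1*, opposite a synaptic vesicle protein gene, held 18 and 10 reads in cytoplasm and 61 and 62 in the nuclei, with 5.32-fold (3.10 to 9.56) and 11.8-fold (6.03 to 25.9). *ADAMTS9-AS2*, from a metalloprotease locus, held 46 and 43 reads in cytoplasm and 95 and 161 in the nuclei. *PCBP1-AS1*, named after a poly(C)-binding paralog of HNRNPK, held 64 and 31 reads in cytoplasm and 132 and 44 in the nuclei.

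**Figure D4:**
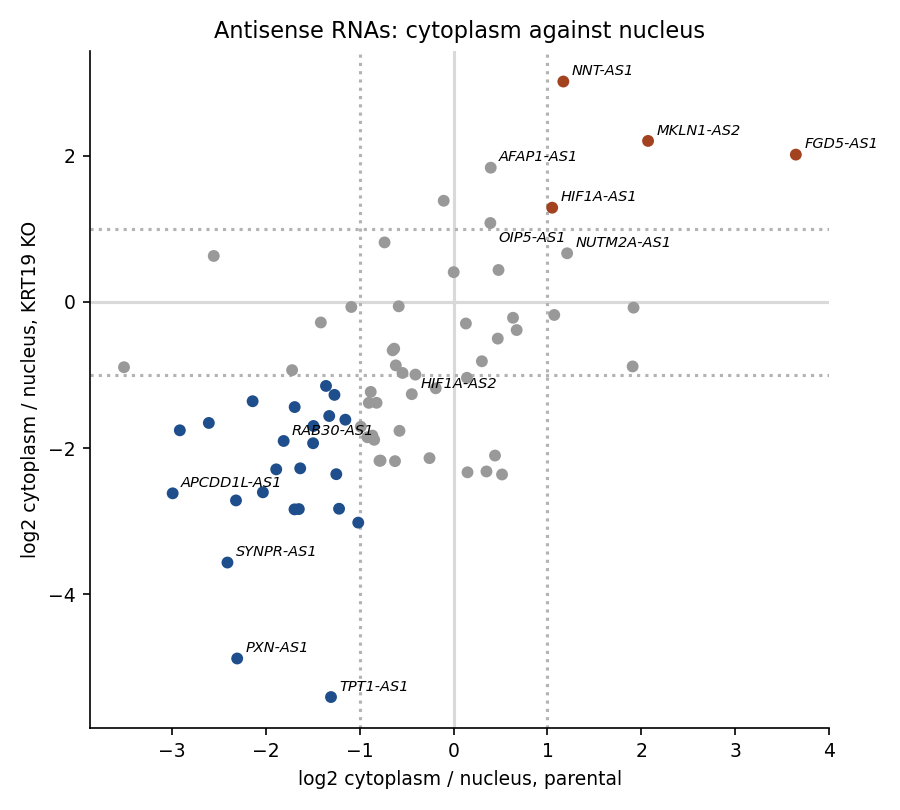
Log2 ratio of cytoplasmic to nuclear RPM in parental (x axis) and *KRT19* KO cells (y axis) for the 73 antisense RNAs with a fold in both, 1 point per RNA, with dotted lines at 2-fold. The 4 brown points at the upper right are at least 2-fold higher in cytoplasm in both cell lines, the 24 blue points at the lower left at least 2-fold lower, and no point lies past 2-fold in the other corners.

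The largest folds in 1 cell line rested on few reads in the lower fraction. In parental cells *WDFY3-AS2*, from the locus of an autophagy adaptor, held 96 cytoplasmic and 5 nuclear reads, a 12.2-fold (5.06 to 38.5) excess in cytoplasm. *STARD4-AS1* and *MAP3K14-AS1* held 5 and 6 reads in parental cytoplasm and 74 and 88 in the parental nucleus, which is 23.2-fold (9.52 to 73.6) and 23.0-fold (10.2 to 64.4) higher in nucleus. In *KRT19* KO cells *PLCE1-AS1* held 75 cytoplasmic and 7 nuclear reads and *RBMS3-AS3* 53 and 5. Each of these RNAs had 1 cluster in its lower fraction.

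By the median, sense partners leaned less to the nucleus. A cluster of the partner was listed for 152 of the 190 antisense RNAs in parental cytoplasm, 129 of 170 in *KRT19* KO cytoplasm, 159 of 200 in the parental nucleus and 169 of 211 in the *KRT19* KO nucleus. In 64 pairs both genes had a cytoplasm to nucleus fold in parental cells, with a median log2 fold of -0.76 for the antisense RNAs and -0.27 for the partners, and the antisense RNA was the lower of the pair in 37. In *KRT19* KO cells there were 60 pairs, with medians of -1.02 and -0.25 and the antisense RNA lower in 38. The antisense RNA was the higher of the pair in 27 parental and 22 *KRT19* KO pairs. *AFAP1-AS1*, opposite the gene of an actin filament-associated protein, was among these in both cell lines. It held 355 and 716 reads in cytoplasm and 172 and 105 in the nuclei, all of the cytoplasmic reads exonic, and was 1.32-fold (1.09 to 1.59) and 3.57-fold (2.90 to 4.42) higher in cytoplasm. *AFAP1* was 1.51-fold (1.33 to 1.71) and 1.76-fold (1.56 to 1.98) higher in nucleus.

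Between cell lines the antisense RNAs moved in both directions. In cytoplasm 85 had a fold, with 12 at least 2-fold higher in *KRT19* KO cells (14.1%, against 20% of 8926 genes) and 24 at least 2-fold lower (28.2%, against 20.1%). In the nucleus 98 had a fold, with 21 at least 2-fold higher (21.4%, against 13.7% of 9158 genes) and 18 at least 2-fold lower (18.4%, against 17.3%). The median log2 folds were -0.26 in cytoplasm and 0.01 in the nucleus, beside -0.05 and -0.10 over all genes. A cluster was listed only in *KRT19* KO cytoplasm for 42 antisense RNAs and only in parental cytoplasm for 62, and only in the *KRT19* KO nucleus for 71 and only in the parental nucleus for 60. Those with a cluster in both cell lines were 55.2% in cytoplasm and 51.7% in the nucleus, against 71.0% and 70.7% of all genes.

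Of 72 antisense RNAs with a fold in both fractions, 3 were at least 2-fold higher in *KRT19* KO cells in both and 5 at least 2-fold lower in both. These are 4.17% and 6.94%, close to the 4.47% and 5.77% of 7782 genes. Another 2 lay past 2-fold in opposite directions (2.78%, against 3.08% of these genes). The higher ones were *OIP5-AS1*, *PSMD5-AS1* and *IPO9-AS1*. *OIP5-AS1*, the cytoplasmic noncoding RNA also called Cyrano, held 282 reads in parental and 1021 in *KRT19* KO cytoplasm, and 137 and 253 in the nuclei. It was 3.23-fold (2.83 to 3.70) higher in *KRT19* KO cytoplasm and 2.01-fold (1.63 to 2.49) in the nucleus, and exons held 80.9% and 95.9% of its cytoplasmic reads. *PSMD5-AS1*, named after a proteasome assembly chaperone, held 24 and 79 reads in cytoplasm and 18 and 56 in the nuclei, with 2.94-fold (1.84 to 4.86) and 3.38-fold (1.96 to 6.12). *IPO9-AS1*, named after an importin, held 18 and 80 reads in cytoplasm and 70 and 132 in the nuclei, with 3.97-fold (2.36 to 7.04) and 2.05-fold (1.52 to 2.78).

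The 5 lower in both were *IQCH-AS1*, *GABPB1-AS1*, *CYP1B1-AS1*, *STX18-AS1* and *PCBP1-AS1*. *IQCH-AS1* held 97 reads in parental and 21 in *KRT19* KO cytoplasm, and 82 and 16 in the nuclei, which is 5.17-fold (3.20 to 8.73) and 4.71-fold (2.74 to 8.63) lower. *GABPB1-AS1*, beside the gene of a subunit of the transcription factor GABP, held 489 and 117 reads in cytoplasm and 465 and 208 in the nuclei, and was 4.68-fold (3.82 to 5.78) and 2.06-fold (1.74 to 2.43) lower. Its deepest site, printed above, held 267 and 88 reads in cytoplasm and 295 and 123 in the nuclei, so the site itself was shared by all libraries. *CYP1B1-AS1*, named after a cytochrome P450, held 173 and 68 reads in cytoplasm and 169 and 65 in the nuclei.

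Other antisense RNAs differed between cell lines most in 1 fraction. *MKLN1-AS1* held 1587 reads in parental and 396 in *KRT19* KO cytoplasm over 81 and 35 clusters, a 4.49-fold (4.02 to 5.02) lower level, and 745 and 890 reads in the nuclei, where it was 1.30-fold (1.18 to 1.43) higher in *KRT19* KO cells. *TPT1-AS1* was 23.3-fold (9.67 to 73.2) lower in *KRT19* KO cytoplasm, from 104 to 5 reads, and 1.36-fold (1.06 to 1.74) lower in the nucleus. *RPL34-AS1*, beside a ribosomal protein gene, held 66 and 10 reads in cytoplasm and 31 and 19 in the nuclei. In the other direction *UGDH-AS1*, from the locus of UDP-glucose dehydrogenase, held 5 and 46 reads in cytoplasm, *SPTY2D1-AS1* 6 and 50 and *VPS9D1-AS1* 8 and 47, each from 1 parental cluster. In the nuclei these 3 held 21 and 35, 22 and 22, and 21 and 35 reads. In the nucleus *CTBP1-AS2*, beside a corepressor gene, held 9 reads in parental and 56 in *KRT19* KO cells, *CRYM-AS1* 28 and 115 and *SLC8A1-AS1* 15 and 47. *OTX2-AS1* held 78 and 7 and *MAP3K14-AS1* 88 and 15.

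**Figure D5:**
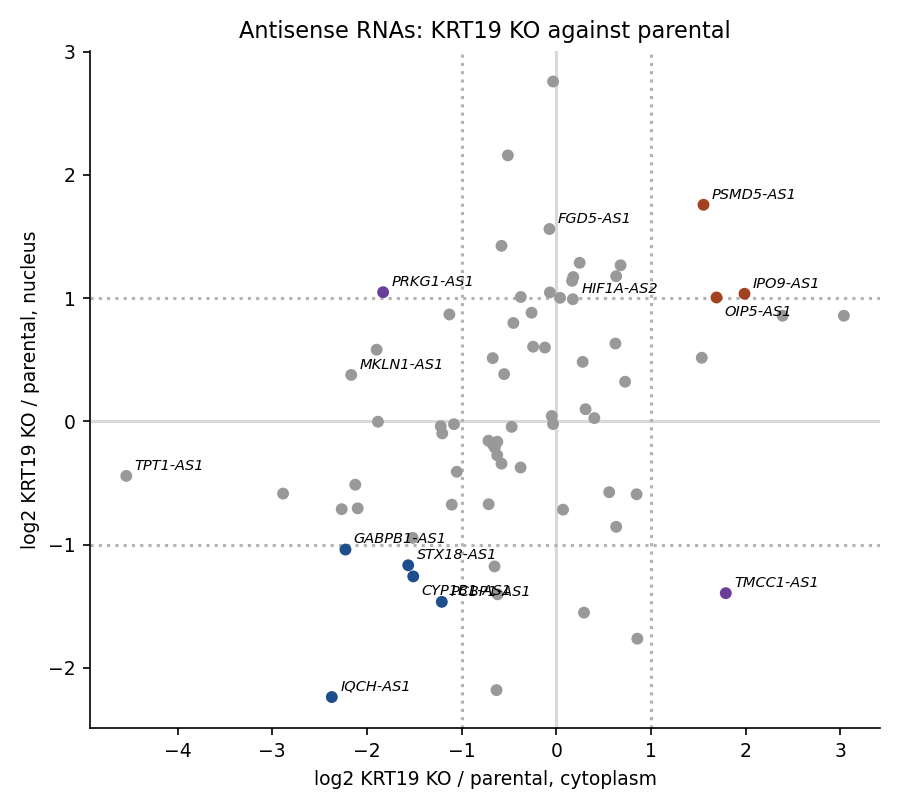
Log2 ratio of *KRT19* KO to parental RPM in cytoplasm (x axis) and nucleus (y axis) for the 72 antisense RNAs with a fold in both, 1 point per RNA, with dotted lines at 2-fold. The 3 brown points are at least 2-fold higher and the 5 blue points at least 2-fold lower in *KRT19* KO cells in both fractions, and the 2 purple points, *PRKG1-AS1* and *TMCC1-AS1*, lie past 2-fold in opposite directions.

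The remaining much-studied antisense RNAs were bound at lower read counts. *TTN-AS1*, opposite the titin gene, held 231 and 293 reads in parental and *KRT19* KO cytoplasm and 168 and 348 in the nuclei, with 89 of its 91 clusters opposite *TTN*, which itself had no cluster listed outside the *KRT19* KO nucleus. *MCM3AP-AS1*, opposite the gene of an mRNA export factor, held 88 and 152 reads in cytoplasm and 87 and 124 in the nuclei. *SBF2-AS1* held 78 and 55 reads in cytoplasm and 93 and 75 in the nuclei. These 3 were listed in each library with between 55 and 348 reads.

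*ZEB1-AS1*, beside the gene of the epithelial-mesenchymal transition factor ZEB1, held 22 and 98 reads in cytoplasm and 10 and 27 in the nuclei, highest in *KRT19* KO cytoplasm. *VIM-AS1*, beside the vimentin gene, held 15 and 20 reads in cytoplasm and 28 and 48 in the nuclei. *FOXD2-AS1* held 11 and 28 reads in cytoplasm, 28 in the *KRT19* KO nucleus and had no cluster listed in the parental nucleus. *TP73-AS1*, *GAS6-AS1*, *MAGI2-AS3* and *LEF1-AS1* held 43, 33, 30 and 19 reads over all libraries, too few for a fold.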

How the data were processed

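HNRNPK-bound RNA was measured by PAR-CLIP in 4 libraries, 1 per condition. According to the methods, the authors demultiplexed reads with Bcl2fastq, aligned them to hg19 and called clusters with PARalyzer in PARpipe. To remove potential PCR duplicates, they collapsed equal reads before they trimmed adapters and UMIs (tags that mark single molecules). The authors deposited raw counts per cluster (reads, unique reads, conversion locations, reads with T-to-C changes), without normalization, with positions, sequences, classes and gene names. Other deposited columns and the 17 RNA-seq samples were not analysed here.

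Reads in clusters numbered 5551612 and 6216226 in parental and *KRT19* KO cytoplasm and 3537577 and 3252800 in the nuclei. All 4893 member cluster sequences equalled GRCh37. Exons came from GENCODE v44lift37 (same strand, at least 1 nt). Members and lists were chosen with earlier results of these data known. Named genes were the 12 members with most reads, the 8 with most clusters, the 3 largest rises and 3 largest falls of each comparison, and 19 much-studied RNAs, plus members past 2-fold in both lines or fractions, which were added after their values were seen. A named gene and a sequence that these rules gave are not reported here. The overlap count and the interval of a ratio of read counts were tested on simulated data with independent counts. Python 3.11.15, numpy 2.4.6, pandas 2.3.3, scipy 1.17.1 and matplotlib 3.10.9 were used.

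A site joined clusters that shared at least 1 nt on the same strand. Alternatives were at least 10 reads or 2 conversion locations in a cluster, unique reads, totals without the 10 deepest clusters, leaving out the member with the most reads, at least 20 reads behind a fold, and 1.5-fold. Exons of GENCODE v44lift37 and folds relative to the median of all genes were added after the data were seen.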

Additional observations from a re-analysis of the deposited data

Results flagged for a closer look

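A pair of antisense RNAs lay past 2-fold in opposite directions between cell lines in the 2 fractions. They are 2.78% of the 72 with a fold in both fractions, close to the 3.08% of 7782 genes. *PRKG1-AS1*, named after a cGMP-dependent protein kinase, had a log2 ratio of *KRT19* KO to parental of -1.83 in cytoplasm (29 against 92 reads) and 1.05 in the nucleus (78 against 41 reads). *TMCC1-AS1* had a log2 ratio of 1.79 in cytoplasm (62 against 16 reads) and -1.39 in the nucleus (21 against 60 reads). The difference between fractions was not tested, since each condition had 1 library.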

How the results depend on the processing

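No paired analysis was possible because each condition had 1 library and no replicate number. The median log2 fold of antisense RNAs between cell lines in the nucleus lay near 0 and changed sign, from 0.01 to -0.05 with at least 10 reads in a cluster, and that of all genes in cytoplasm went from -0.05 to 0.0016 by unique reads. Unique reads were 31.1% and 44.9% of member reads in parental and *KRT19* KO cytoplasm and 19.3% and 19.3% in the nuclei. A 2-fold difference thus rested on few unique reads in many RNAs. Whether unique reads count molecules or only distinct sequences was not checked. Clusters under 5 reads are not in the files, so detection is limited by depth. Values that moved follow, in the order parental and *KRT19* KO cytoplasm, then parental and *KRT19* KO nucleus, and the cause was not tested.

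With at least 10 reads in a cluster, 114 and 106 genes were found in cytoplasm, the share of clusters was 0.572% in *KRT19* KO cytoplasm, and the share of reads was 0.405% and 0.353% in cytoplasm and 0.814% in the *KRT19* KO nucleus. Classes outside introns held 76.4%, 74.0%, 74.3% and 71.5% of clusters, and CCC occurred in 45.5% in *KRT19* KO cytoplasm. With at least 2 conversion locations, 88, 82 and 67 genes were found in parental cytoplasm and the parental and *KRT19* KO nuclei, and the share of clusters was 0.559% and 0.569% in cytoplasm. The share of reads was then 0.386%, 0.353%, 0.677% and 0.928%, CCC occurred in 47.4%, 44.4%, 60.9% and 55.9% of clusters, and classes outside introns held 75.7% in parental cytoplasm and 67.6% and 62.9% in the nuclei.

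Without *HIF1A-AS2*, the share of reads was 0.359%, 0.295%, 0.545% and 0.575%, the share of clusters was 0.570% and 0.612% in *KRT19* KO cytoplasm and nucleus, and classes outside introns held 84.7%, 84.3%, 81.5% and 81.5%. Without the 10 deepest clusters in the totals, the share of reads was 0.500%, 0.415%, 0.658% and 0.813%, and the median log2 cytoplasm to nucleus fold of all genes in parental cells shifted by 0.18. By unique reads the share was 0.375% in *KRT19* KO cytoplasm and 0.626% and 0.793% in the nuclei. With exons of GENCODE v44lift37 in place of the classes, the share was 21.7%, 28.4%, 15.1% and 17.2%, a setting added after the data were seen.

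Overlap between libraries was higher for deeper clusters. With at least 10 reads, parental cytoplasmic clusters overlapped those of *KRT19* KO cytoplasm and of the parental and *KRT19* KO nuclei in 30.8%, 27.0% and 27.2%. *KRT19* KO cytoplasmic clusters overlapped parental cytoplasmic, parental nuclear and *KRT19* KO nuclear ones in 35.6%, 26.8% and 30.1%, and parental nuclear clusters overlapped parental cytoplasmic and *KRT19* KO nuclear ones in 23.0% and 22.3%. A minimum of 2 conversion locations is not a minimum of depth, and overlap moved both ways with it. Parental cytoplasmic clusters then overlapped *KRT19* KO cytoplasmic and parental nuclear ones in 35.1% and 23.0%, against 23.1% and 19.8% without this minimum. *KRT19* KO cytoplasmic clusters overlapped parental and *KRT19* KO nuclear ones less often, in 15.8% and 18.2%, against 20.5% and 22.6%. The overlaps of nuclear clusters, given next, rose. Parental nuclear clusters overlapped parental cytoplasmic, *KRT19* KO cytoplasmic and *KRT19* KO nuclear ones in 36.4%, 32.8% and 29.4%, and *KRT19* KO nuclear clusters overlapped parental cytoplasmic, *KRT19* KO cytoplasmic and parental nuclear ones in 34.0%, 39.2% and 30.6%.

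Counts past 2-fold changed most by unique reads, where the minimum of 50 applied to unique reads and only 34 to 43 antisense RNAs had a fold. In parental cells 3 were then higher and 13 lower in cytoplasm, and in *KRT19* KO cells 25 were lower. Between cell lines 3 were higher and 9 lower in *KRT19* KO cytoplasm, and 8 higher and 3 lower in the nucleus. Of the RNAs past 2-fold that also had a fold by unique reads, 14 of 16 and 30 of 31 between fractions (parental, *KRT19* KO) and 11 of 14 and 9 of 14 between cell lines (cytoplasm, nucleus) were still past it, none with the other sign. With at least 10 reads in a cluster 5 were higher in parental cytoplasm than nucleus. Relative to the median of all genes 18 and 15 were higher in cytoplasm in parental and *KRT19* KO cells. With at least 20 reads behind a fold 19 were higher in *KRT19* KO cytoplasm, and at 1.5-fold 21 were higher there, with 35 higher and 30 lower in the nucleus. The share of all genes past the fold was not counted in these settings. Whether antisense RNAs differ from the rest in them is therefore not known.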
